A study of Mus musculus with 5 samples.

Results

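The 10 genes described here were the receptor Kit and 9 regulators or markers of blood stem and progenitor cells, namely Cd34, Meis1, Hoxa9, Mecom, Erg, Myb, Sox4, Lmo2 and Tal1. They were taken by symbol from the 32285 genes of the deposited tables, and all 10 were present with the same identifier as in GENCODE vM21. In GRCm38, Kit lies at chr5:75574916-75656722, Cd34 at chr1:194938819-194961279, Meis1 at chr11:18879817-19018985, Hoxa9 at chr6:52223100-52231089 and Mecom at chr3:29951296-30548008. Erg lies at chr16:95359169-95586593, Myb at chr10:21124935-21160984, Sox4 at chr13:28948919-28953713, Lmo2 at chr2:103957986-103981878 and Tal1 at chr4:115056426-115071755. The libraries came from C57BL/6 mice given CMM cells, a GFP-marked inv(16) acute myeloid leukaemia, by intravenous injection. When GFP+ leukaemia cells had reached about 1% of blood, the mice received PBS or CpG-STAT3dODN, called the decoy here (a CpG-linked DNA duplex that carries a binding site for STAT3) in 3 intravenous injections, given every other day. Spleen cells positive for GFP and for c-Kit, the protein of Kit, were then sorted and run as droplet single-cell RNA-seq. There was 1 PBS library (n = 1) and there were 4 decoy libraries (n = 4), Decoy 2, Decoy 3, Decoy 5 and Decoy 6. Nothing in the labels ties a library to 1 animal, and the spread behind every p-value is that among libraries, which may be technical.

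Kit is the receptor for stem cell factor and is carried by blood stem cells, early progenitors and mast cells. Cd34 marks early progenitors, and Hoxa9 and Meis1 encode homeobox proteins that act together in stem cells and in several leukaemias. Tal1 and Lmo2 belong to a DNA-binding complex with GATA factors in stem, erythroid and mast cells, Erg is an ETS factor of stem cells, and Myb, Mecom and Sox4 encode further nuclear regulators of progenitors. Because c-Kit was a sort criterion, Kit RNA in the sorted cells is a check of the sort rather than a result.

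After filtering, 31040 cells were kept, between 1933 and 16034 per library, with medians of 14005 to 36505 unique molecular identifiers (UMIs, counts of single RNA molecules) per cell. Clusters were built without the 10 genes and named from marker genes. The leukaemic class numbered 14668 cells in PBS, and 5197, 375 and 1414 in Decoy 2, 3 and 6. Decoy 5 had 1 such cell and entered no leukaemic value. This class carried mast cell and basophil markers, with a summed level of 3028 to 4136 CPM (the UMIs of a gene per 1000000 UMIs of the class). In each library 10 of 11 had a level above 0 in the class sum, as did all 12 erythroid markers. The naming step listed 6 of the 11 in each cluster of the class. Erythroid markers summed to more in the same cells, 4285 CPM in PBS and 5235, 10590 and 7730 in Decoy 2, 3 and 6. The leukaemic class also carried the female transcript Xist (878 to 1076 CPM), with 4 Y-linked genes summing to at most 0.632 CPM. The other classes carried Y-linked transcripts (46.8 to 179.9 CPM per class and library in named classes with at least 20 cells), and were read as host cells that had passed the sort. The granulocyte-monocyte progenitor-like class (134 to 334 cells per library) and the haemoglobin-low erythroid-like class (31 to 385 cells per library) were the reference classes. The first was named from 8 progenitor markers, which summed to 5369 CPM in PBS. Neutrophil and monocyte markers summed to more in every library (24710 and 5404 CPM in PBS), so this class is not progenitors alone. Xist was also found in the progenitor-like class, at 99.9 CPM in PBS, 96.6 in Decoy 2, 25.6 in Decoy 3, 18.4 in Decoy 6 and 0 in Decoy 5, and in the T cell-like class at up to 344 CPM. The part of RNA from leukaemic cells, or of droplets with 2 cells, in the values printed for those classes was not tested. The comparisons between classes were also run with cells gated on Xist and Y-linked UMIs. That gate kept leukaemic cells with Xist and no Y-linked UMI, and host cells with the reverse. Between 1 and 45 cell barcodes were shared by each pair of libraries, at most 0.695% of the smaller one.

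Kit was higher in the leukaemic class than in the progenitor-like and the erythroid-like class. Its level in leukaemic cells was 51.4 CPM in PBS, 51.9 in Decoy 2, 46.9 in Decoy 3 and 43.7 in Decoy 6. In progenitor-like cells it was 9.38 in PBS and 14.8, 15.8, 7.99 and 9.45 in Decoy 2, 3, 5 and 6. In erythroid-like cells it was 16.4 in PBS and 29.2, 46.0, 31.9 and 28.6 in the same decoy libraries. The leukaemic and progenitor-like ranges did not overlap, whereas the erythroid-like value of Decoy 3 lay inside the leukaemic range. Kit was 2.03 ± 0.14 (SE) log2 units higher in leukaemic than in progenitor-like cells over the 4 libraries that held both (edgeR quasi-likelihood test with library as a block, adjusted p = 4.13e-05). Against erythroid-like cells the difference was 0.72 ± 0.19 log2 units (edgeR, adjusted p = 0.00941), higher in 4 of 4 libraries. That call was lost when haemoglobin-rich erythroid cells were added to the reference (0.92, edgeR adjusted p = 0.0577). Kit, Meis1, Erg, Myb, Lmo2 and Tal1 were called between leukaemic and progenitor-like cells. Cd34, Hoxa9 and Sox4 passed the filter on low counts there only through the progenitor-like class, and Mecom did not pass it. Against erythroid-like cells Kit, Erg, Myb and Lmo2 were called, Meis1 and Tal1 were not, and Cd34 did not pass the filter. The background was high: 75.2% and 64.3% of all tested genes were called in these comparisons, so a call by itself does not set a member apart.

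**Figure D1:**
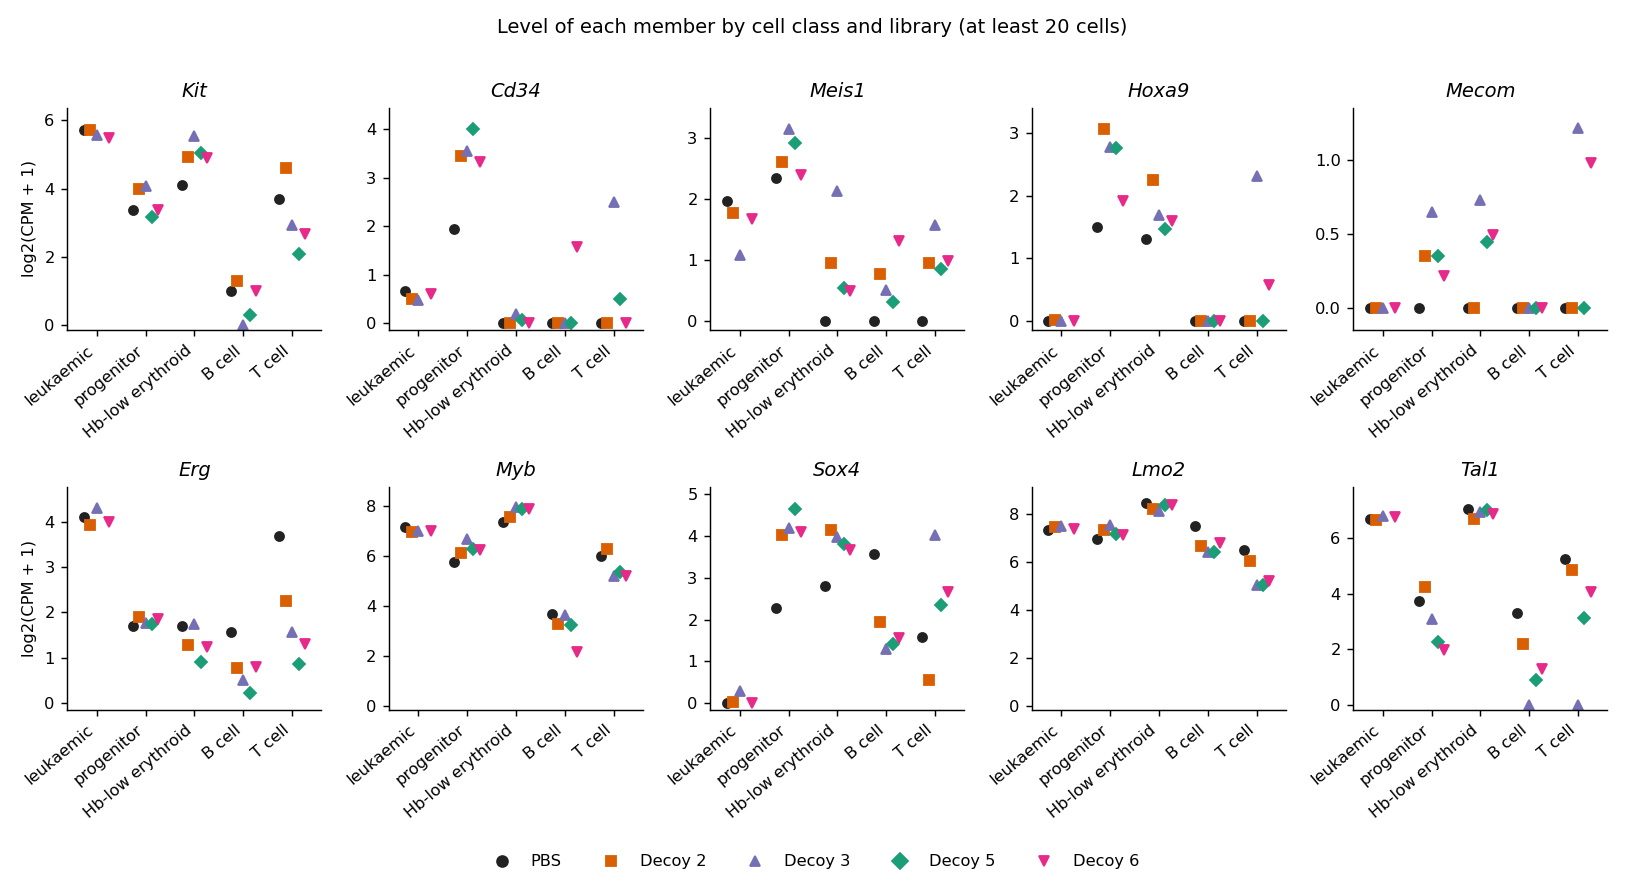
Level of each of the 10 genes, as log2(CPM + 1) on the vertical axis, in 5 cell classes, 1 point per library with at least 20 cells of the class. Kit, Erg and Tal1 sit high in leukaemic cells, while Cd34, Hoxa9, Mecom and Sox4 lie at or near 0 there. Cd34, Hoxa9 and Sox4 are found in progenitor-like cells, where Mecom averages 0.255 CPM.

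Detection of Kit per cell followed the same order. With each cell thinned to 10000 UMIs, 34.0% of leukaemic cells in PBS had a Kit UMI, against 35.0% in Decoy 2, 31.0% in Decoy 3 and 29.9% in Decoy 6. Without thinning, the leukaemic shares were 64.3%, 69.3%, 61.3% and 55.3%. The thinned share was 5.19% to 10.3% in progenitor-like cells and 7.98% to 29.4% in erythroid-like cells. The B cell-like class, a background since mature B cells lack Kit, showed 0% to 1.68% at medians of 3898.5 to 9109 UMIs before thinning, and T cell-like cells showed 2.18% to 11.0% at medians of 6919 to 13644. Only cells with at least 10000 UMIs enter the thinned shares, a minority of the B cell-like cells in each library. Without thinning, 0.515% of the B cell-like cells in PBS had a Kit UMI. Kit RNA was therefore detected in a small part of the B cell-like droplets that had been sorted as c-Kit+. The progenitor-like shares in PBS and Decoy 2, 6.83% and 8.54%, lay below the T cell-like shares of the same libraries, 10.1% and 11.0%. These progenitor-like shares are not read as expression beyond background. The T cell-like class carried Xist at 344 CPM in PBS and 279 in Decoy 2. The part of leukaemic RNA in its shares was not tested.

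**Figure D2:**
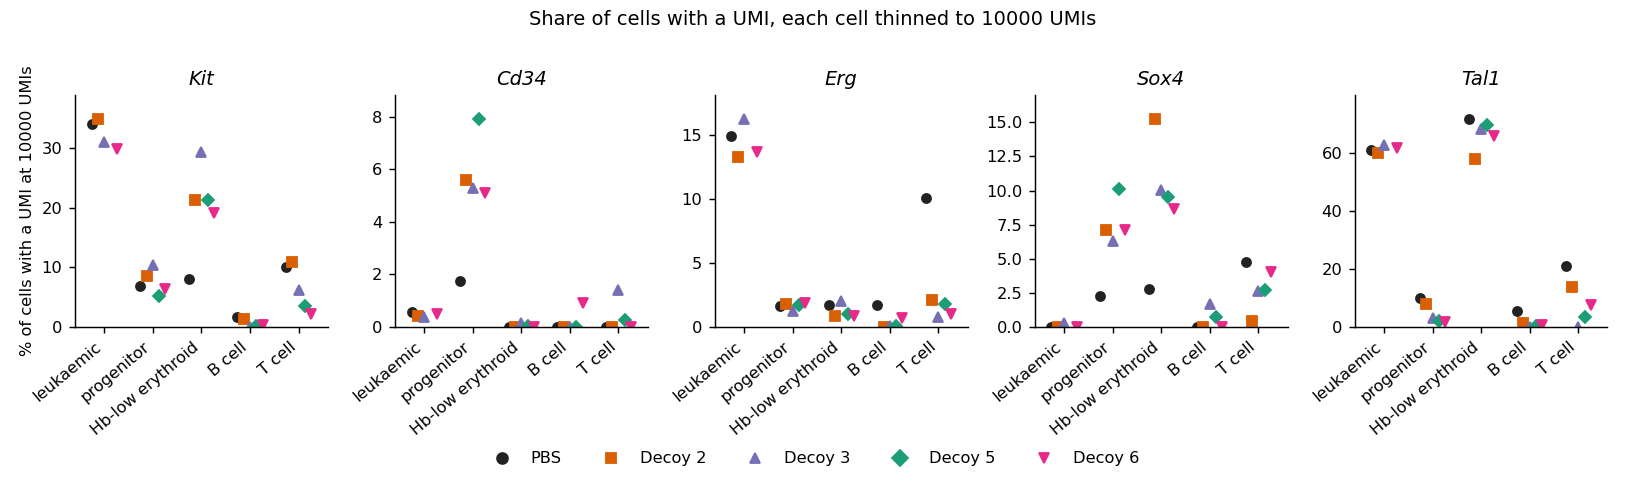
Share of cells with at least 1 UMI of Kit, Cd34, Erg, Sox4 or Tal1 after each cell was thinned to 10000 UMIs (vertical axis, percent), by cell class, 1 point per library. For Kit, leukaemic cells lie at 29.9% to 35.0% and B cell-like cells at 0% to 1.68%.

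Kit varied several-fold within the leukaemic class. This class joined 4 clusters that differed in their mast cell and erythroid genes. In cluster 2, led by Scin and Cpa3 (a mast cell protease), Kit was 266 CPM in PBS, 236 in Decoy 2, 144 in Decoy 3 and 166 in Decoy 6. In cluster 1, led by Cited1 and Dnase2b, it was 51.6, 57.2, 37.2 and 39.1 in the same order. In cluster 0, the largest of the 4 in PBS and led by Cited1 and Rcvrn, it was 30.4, 34.8, 31.1 and 25.4. In cluster 6, where haemoglobin made up 3.73% of UMIs, it was 20.8, 17.5, 13.7 and 6.95. The order of the 4 clusters was the same in each of the 4 libraries; it was not tested. Cells of cluster 2 had a median of 15710.5 UMIs, against 29568.5 to 39163 in the other 3, and the part of depth in this order was not tested. Cluster 2 held 13.02% of the leukaemic cells in PBS and 10.4%, 18.9% and 16.0% in Decoy 2, 3 and 6.

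Erg, Myb and Tal1 were likewise highest in cluster 2 in PBS. Erg was 29.4 CPM in cluster 2 and 2.42 in cluster 6 of PBS, 26.6 and 2.19 in Decoy 2, 19.2 and 3.04 in Decoy 3, and 28.7 and 0 in Decoy 6. Erg in cluster 6 was thus below that in cluster 2 in 4 of 4 libraries. Myb was 167 CPM in cluster 2 and 78.0 in cluster 6 of PBS, and Tal1 was 135 and 99.3. Lmo2 ran the other way: in PBS it was 81.1 CPM in cluster 2 and 183 in cluster 0, and it was lower in cluster 2 than in cluster 0 in each library, with the smallest gap in Decoy 3 (139 against 205).

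**Figure D3:**
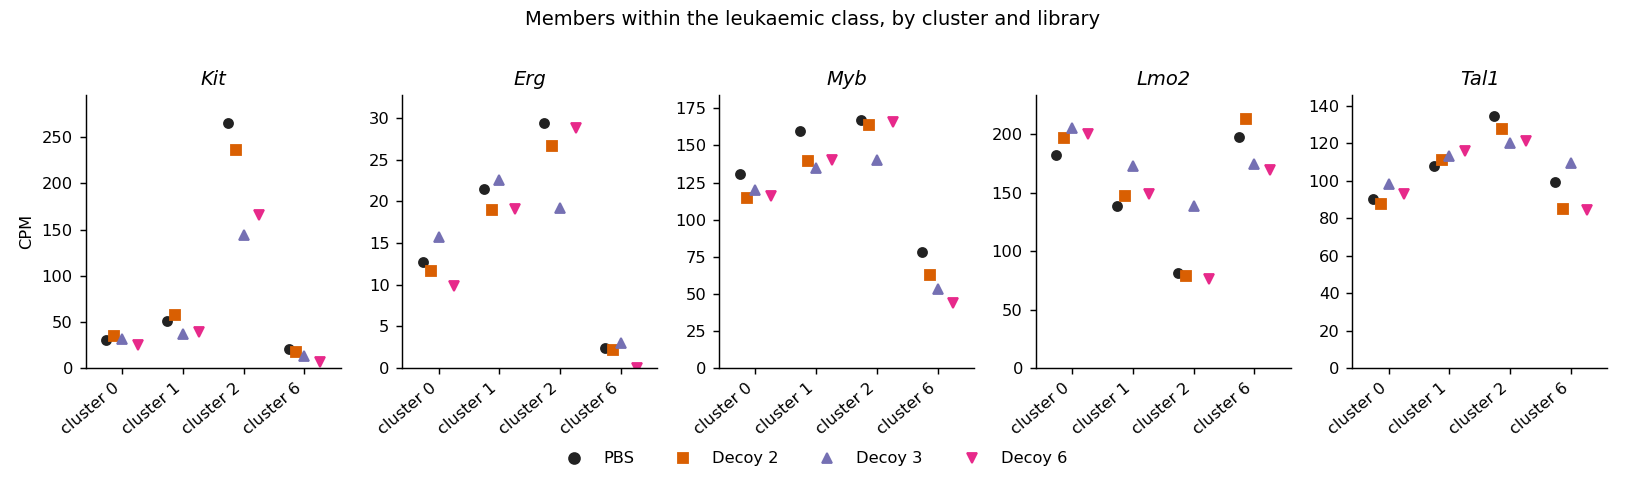
Levels of Kit, Erg, Myb, Lmo2 and Tal1 in CPM (vertical axis, from 0) in the 4 clusters of the leukaemic class, 1 point per library; Decoy 5 had no cluster with 20 cells. Kit is highest in cluster 2 (144 to 266 CPM) in all 4 libraries, and Lmo2 is lowest there.

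Cd34 (a sialomucin of the surface of early progenitors) was low in the RNA of the leukaemic class as a whole. Its level there was 0.580 CPM in PBS, 0.402 in Decoy 2, 0.395 in Decoy 3 and 0.519 in Decoy 6. Progenitor-like cells had 2.86 CPM in PBS and 9.89, 10.8, 14.96 and 8.96 in Decoy 2, 3, 5 and 6, without overlap with the leukaemic range. The leukaemic level was lower in 4 of 4 libraries. Cd34 passed the filter in this comparison only through the progenitor-like class, so no test of it is given. Within the leukaemic class Cd34 was highest in cluster 2, at 3.51 CPM in PBS (105 UMIs), 1.95 in Decoy 2, 1.92 in Decoy 3 and 1.45 in Decoy 6, and at most 0.566 in each other cluster. The PBS value of cluster 2 thus lay above the progenitor-like value of PBS. Erythroid-like cells held 2 Cd34 UMIs in all 5 libraries together, so that comparison did not pass the filter.

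Among the homeobox genes and their partners, Hoxa9 and Mecom were almost undetected in leukaemic cells. Hoxa9 had 1 UMI in the 21654 leukaemic cells of the 4 libraries against 148 UMIs in 710 progenitor-like cells. The summed level in progenitor-like cells was 3839 times the leukaemic one (95% exact interval 678 to 152633, counting error only). In PBS, 0 of 14668 leukaemic cells had a Hoxa9 UMI, which allows a share of up to 0.0205% with a UMI and sets no limit on cells that express the gene. By library, progenitor-like cells had 1.84 CPM in PBS and 7.35, 5.83, 5.81 and 2.77 in Decoy 2, 3, 5 and 6, and erythroid-like cells had 1.49 and 3.77, 2.22, 1.75 and 2.02. Hoxa9 and Sox4 passed the filter in the comparisons between classes only through the host classes, so no test of theirs is given. Mecom, which encodes the zinc finger factor EVI1, had 1 UMI in the same leukaemic cells and 8 in the progenitor-like cells, a ratio of 207 (95% exact interval 27.8 to 9207). Mecom did not pass the filter in either comparison between classes.

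Meis1 (a homeobox partner of Hoxa9) was present at a low level in leukaemic cells. It had 2.91 CPM in PBS, 2.41 in Decoy 2, 1.11 in Decoy 3 and 2.19 in Decoy 6, and 4.08, 5.08, 7.82, 6.56 and 4.23 in progenitor-like cells of PBS and Decoy 2, 3, 5 and 6. The ranges did not overlap, and the leukaemic level was 1.18 ± 0.34 log2 units lower (edgeR, adjusted p = 0.0196). Without Decoy 2 this call was lost (edgeR, adjusted p = 0.0608). Against erythroid-like cells (0 to 3.40 CPM) the difference was 0.59 log2 units with a 95% interval of -0.96 to 2.15 and was not called (edgeR, adjusted p = 0.466). It reached 2.45 without Decoy 3, which had the highest erythroid-like value (edgeR, adjusted p = 0.00731).

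Sox4 (an HMG-box factor of progenitors) was also near 0 in leukaemic cells, with 3 UMIs in PBS, 5 in Decoy 2, 3 in Decoy 3 and 0 in Decoy 6. Summed over these libraries, progenitor-like cells had 960 times the leukaemic level (95% exact interval 531 to 1938) and erythroid-like cells 895 times (491 to 1817). In progenitor-like cells Sox4 was 3.88 CPM in PBS and 15.2, 17.2, 23.9 and 16.1 in Decoy 2, 3, 5 and 6. In erythroid-like cells it was 5.95 in PBS and 16.5, 14.6, 12.8 and 11.7. In both host classes PBS was below every decoy library.

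Myb (a factor required for progenitor growth) lay between the reference classes. It had 141 CPM in leukaemic cells of PBS and 123, 126 and 127 in Decoy 2, 3 and 6. Progenitor-like cells had 53.0 CPM in PBS and 67.2, 99.2, 76.1 and 73.0 in Decoy 2, 3, 5 and 6. Erythroid-like cells had 160, 188, 248, 229 and 230 CPM in PBS and Decoy 2, 3, 5 and 6. The 3 ranges did not overlap. Myb was 0.91 ± 0.14 log2 units higher in leukaemic than in progenitor-like cells (edgeR, adjusted p = 0.00142) and 0.57 ± 0.11 lower than in erythroid-like cells (edgeR, adjusted p = 0.00232). The second call was lost with haemoglobin-rich cells in the reference (edgeR, adjusted p = 0.288).

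Tal1, Lmo2 and Erg were the members of the GATA and ETS network. Tal1 was 99.3 CPM in leukaemic cells of PBS and 96.8, 108 and 104 in Decoy 2, 3 and 6, and 129, 100, 119, 125 and 113 in erythroid-like cells of PBS and Decoy 2, 3, 5 and 6. These ranges overlapped, and the difference was -0.06 log2 units with a 95% interval of -0.23 to 0.11 (edgeR, adjusted p = 0.519). Progenitor-like cells had 12.4 CPM in PBS and 17.7, 7.54, 3.82 and 2.93 in Decoy 2, 3, 5 and 6, and the leukaemic level was 3.45 ± 0.39 log2 units higher (edgeR, adjusted p = 0.000345). The progenitor-like values of Tal1 were highest in PBS and Decoy 2, the libraries with the most Xist in that class. The part of leukaemic RNA in these values was not tested. Tal1 was also called against progenitor-like cells with cells gated on Xist and Y-linked UMIs.

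Erg was 16.3, 14.3, 18.6 and 14.9 CPM in leukaemic cells of PBS and Decoy 2, 3 and 6. It was 2.24 to 2.72 CPM in progenitor-like and 0.877 to 2.35 CPM in erythroid-like cells. The leukaemic range lay above both, by 2.71 ± 0.13 log2 units over progenitor-like cells (edgeR, adjusted p = 1.29e-05) and 3.29 ± 0.18 over erythroid-like cells (edgeR, adjusted p = 3.75e-06).

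Lmo2 was found in most cells of all 3 classes. It had 162 CPM in leukaemic cells of PBS and 176, 180 and 166 in Decoy 2, 3 and 6, 124 to 187 CPM in progenitor-like cells, and 281 to 352 CPM in erythroid-like cells. It was 0.78 ± 0.09 log2 units lower in leukaemic than in erythroid-like cells (edgeR, adjusted p = 0.000133). The small difference from progenitor-like cells, 0.23 ± 0.07 (edgeR, adjusted p = 0.0245), was lost without Decoy 2 (edgeR, adjusted p = 0.0612), without Decoy 6 (0.0987), without PBS (0.102), with RLE scaling (0.0534), at clustering resolution 1.0 (0.0535) and without the library block (0.170).

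RefSeq upstream sequences were listed for 9 of the 10 genes (all but Lmo2), at 14 start sites, and the 250 bases before each start were searched on both strands for TTCNNNGAA, the core recognised by STAT proteins, and for the GATA-type motifs AGATAA and TGATAA. TTCNNNGAA was in 0 of the 14 windows and in 7.02% of 32851 windows of the same length over all genes. AGATAA was in 2 of 14, against 9.99% of all windows, and TGATAA in 1 of 14 (Mecom), against 7.94%. The windows of Kit and Myb, both at higher levels than Erg in leukaemic cells, held none of the 3 motifs. Mecom, which held TGATAA, was nearly undetected there. A link between motif and level was not tested. The windows of Tal1 and Erg that held AGATAA (of 2 and 3 listed starts) are shown as examples, with that of Hoxa9, which held none of the 3 motifs. They lie in GRCm38.p6 at chr4:115056176-115056425 (plus strand), chr16:95459349-95459598 (minus strand) and chr6:52227371-52227620 (minus strand), each just upstream of exon 1 of a transcript, and are written 5′ to 3′ along the gene. Capitals mark the motif, here read on the opposite strand; a match is a description and not a binding site.
Tal1: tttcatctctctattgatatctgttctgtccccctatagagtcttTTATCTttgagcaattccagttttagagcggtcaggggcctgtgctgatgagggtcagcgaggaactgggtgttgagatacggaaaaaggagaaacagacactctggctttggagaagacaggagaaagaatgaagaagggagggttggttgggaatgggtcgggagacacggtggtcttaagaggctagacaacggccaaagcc
Erg: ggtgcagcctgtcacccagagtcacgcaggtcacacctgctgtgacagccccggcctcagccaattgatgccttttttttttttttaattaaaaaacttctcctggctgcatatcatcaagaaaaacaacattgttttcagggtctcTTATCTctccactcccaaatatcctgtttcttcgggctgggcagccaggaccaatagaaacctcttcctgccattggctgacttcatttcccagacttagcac
Hoxa9: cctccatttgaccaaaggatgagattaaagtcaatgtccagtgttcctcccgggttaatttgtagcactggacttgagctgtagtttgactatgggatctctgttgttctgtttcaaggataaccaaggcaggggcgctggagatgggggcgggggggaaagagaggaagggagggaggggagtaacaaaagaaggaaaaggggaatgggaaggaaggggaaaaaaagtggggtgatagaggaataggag

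The progenitor-like class was not uniform, and Cd34, Hoxa9 and Sox4 were highest in 2 of its 13 sub-clusters, 9 and 4. Sub-cluster 4, led by Mpo (118 cells), had Kit at 24.4, Cd34 at 28.9, Hoxa9 at 15.2, Sox4 at 36.7, Myb at 192 and Lmo2 at 268 CPM with libraries summed. Sub-cluster 9, led by Dntt (the lymphoid DNA nucleotidyltransferase) and containing 30 cells, had Kit at 43.9, Cd34 at 159, Meis1 at 39.4, Hoxa9 at 42.1, Mecom at 8.06, Erg at 28.7, Myb at 263, Sox4 at 324 and Lmo2 at 331 CPM. It had 0 cells from PBS and 4 to 14 from each decoy library. By contrast, sub-clusters 0, 1 and 3, with 171, 149 and 124 cells, had Kit between 0 and 1.27 CPM and Cd34 between 0 and 0.922 CPM. Their level of the monocyte marker Ly6c2 was 3926 to 5454 CPM, against 2210 in sub-cluster 4. Mpo was 6.34 to 106 CPM in them, against 2483 in sub-cluster 4. Meis1 and Lmo2 were spread more widely: in sub-clusters 0, 1 and 3 Meis1 was 4.50, 5.53 and 6.34 CPM, against 5.36 in sub-cluster 4, and Lmo2 was 89.1 to 112 CPM. Kit was highest in sub-cluster 10, led by Xcr1 (59.8 CPM, 17 cells), and was 33.7, 42.05 and 29.02 CPM in sub-clusters 6, 7 and 8. Sub-cluster 7 (62 cells, 60 of them from Decoy 3) had a median of 1803 UMIs, so its levels rest on few counts. It had Xist at 533 CPM, the highest of the 13, and Y-linked transcripts at 98.1 CPM. Sub-cluster 8 (54 cells, 16 of them from PBS and 30 from Decoy 2) carried Cpa3 among its leading genes, Xist at 396 and Y-linked transcripts at 52.7 CPM, that is, RNA of both origins.

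**Figure D4:**
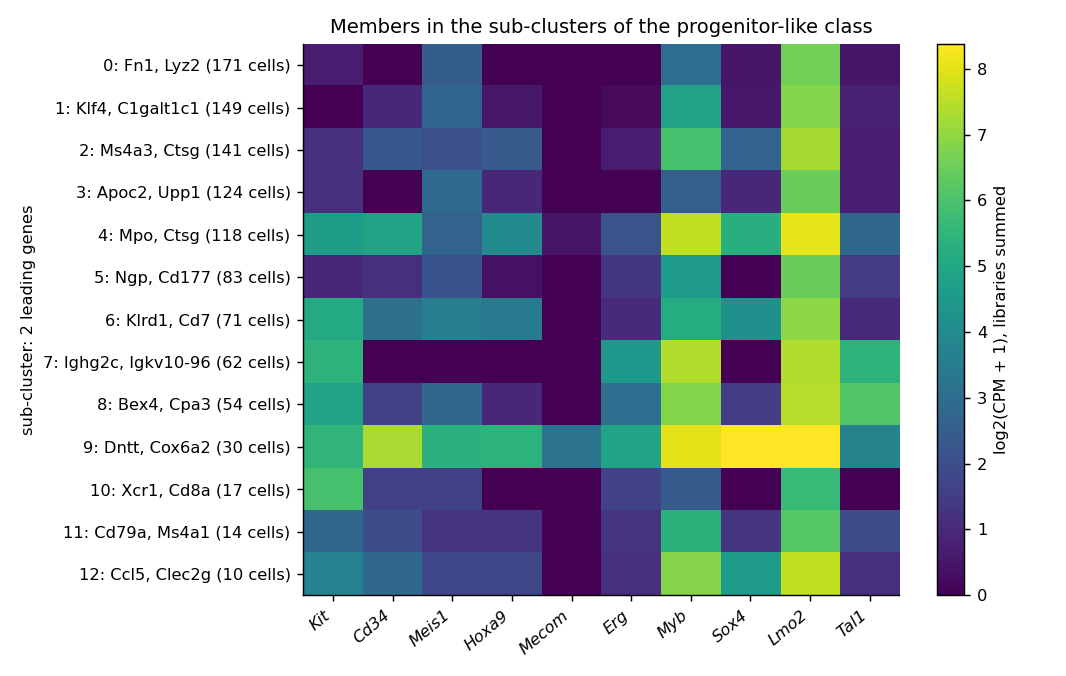
Levels of the 10 genes, as log2(CPM + 1) with libraries summed (colour), in the 13 sub-clusters of the progenitor-like class, each row labelled with its 2 leading genes and its number of cells. Sub-clusters 4 and 9 have the highest levels of Cd34, Hoxa9 and Sox4.

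The estimates of 2 members changed sign when sub-cluster 4 alone was the reference. In sub-cluster 4 Myb was 170 CPM in PBS and 128, 243, 187 and 242 in Decoy 2, 3, 5 and 6, and Lmo2 was 296 in PBS and 239, 293, 261 and 274. Only Decoy 2 and Decoy 3 had at least 20 of its cells and a leukaemic class. Against this sub-cluster Myb was 0.43 ± 0.12 and Lmo2 0.48 ± 0.11 log2 units lower in leukaemic cells (edgeR, adjusted p = 0.000803 and 7.24e-05). Leukaemic Myb was 122.9 to 127.1 CPM over the decoy libraries, near the 128 of Decoy 2, so the Myb difference rests mainly on Decoy 3. Leukaemic Lmo2, at 166.4 to 180.5 CPM, lay below both libraries' values. Kit was still higher in leukaemic cells, by 0.98 ± 0.18, and Erg and Tal1 by 3.63 ± 0.46 and 4.18 ± 0.23 log2 units. This comparison, added after the sub-clusters had been seen, rests on 2 libraries.

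Genes of related function showed which other parts of these programmes differed between the classes. The counts of called genes include some that were near 0 in one class and passed the filter only through the other. Against progenitor-like cells, Hoxa7, Ssbp2, Gfi1, Flt3, Csf3r and Cebpa passed it only through the progenitor-like class. Against erythroid-like cells, Mitf passed it only through the leukaemic class. Calls of such genes are no independent evidence. Of 21 further HOX and MEIS network genes, 13 passed the filter against progenitor-like cells; 9 were higher and 4 lower in leukaemic cells, where 39.1% and 36.1% of all tested genes were called in those directions. Their median was 0.70 log2 units, against 0.05 for all genes. Meis2, a homeobox gene related to Meis1, averaged 31.8 CPM in leukaemic and 2.32 in progenitor-like cells (3.83 ± 0.43, edgeR adjusted p = 0.000327). Hoxb2 averaged 7.36 against 0.846 CPM, whereas Hoxa7, with 6.11 CPM in progenitor-like cells, was at or below 0.00203 CPM in every leukaemic library. These genes thus split, with Hoxa7 and Hoxa9 nearly undetected and Meis2 and Hoxb2 higher.

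Of 20 partners of the TAL1, LMO2 and ERG complexes, all passed the filter against progenitor-like cells, and 12 were higher and 6 lower. There 39.1% and 36.1% of all tested genes were called in those directions. The list median was 0.76 log2 units, against 0.05 for all genes. Gata1, an erythroid and mast cell GATA factor, averaged 174 against 14.9 CPM, and Gfi1b 89.6 against 7.07. Ssbp2 (0.166 against 16.1 CPM) and Gfi1 (0.0499 against 4.07 CPM) were lower. Against erythroid-like cells 7 of 19 were higher and 6 lower, where 34.1% and 30.1% of all genes were called. Fli1, an ETS factor, averaged 78.3 against 3.98 CPM and Runx1 333 against 35.4 CPM, whereas Zfpm1, the GATA cofactor FOG1, averaged 35.7 against 231 CPM.

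Of 24 components of Kit signalling, 23 were tested in both comparisons. Against progenitor-like cells 8 were higher and 12 lower, where 39.1% and 36.1% of all tested genes were called in those directions. The list median was -0.34 log2 units, against 0.05 for all genes. The phospholipase Plcg2 was at 6.43 against 62.4 CPM and the phosphatase Ptpn6 at 72.2 against 262. Against erythroid-like cells 16 of the 23 were higher and 4 lower, where 34.1% and 30.1% of all tested genes were called in those directions. The list median was 0.72 log2 units, against 0.03 for all genes. The mast cell factor Mitf was at 8.34 against 0.331 CPM and the adaptor Gab2 at 38.3 against 6.99. Of 20 surface receptors, 18 were tested against progenitor-like cells, 7 higher and 11 lower, against the same 39.1% and 36.1% of all genes. Their median was -2.08 log2 units. Flt3 (0.00914 against 5.25 CPM), Csf3r (0.237 against 29.4), Csf1r (0.885 against 62.9) and Ly6a (4.17 against 1032), which encodes Sca-1, were lower. Of 24 other stem cell and leukaemia factors, 18 were tested against progenitor-like cells, and 11 were higher and 5 lower. The shares over all genes were again 39.1% and 36.1%, and the list median was 1.03 log2 units. Hlf (28.0 against 3.13 CPM), Bmi1 (141 against 16.3) and Ikzf2 (281 against 17.6) were higher, and Cebpa, the granulocyte factor, was lower (0.153 against 18.3). The marker lists used to name cell classes overlap these lists in Adgrg1, Csf3r, Esam, Flt3, Hlf, Itga2b, Klf1, Ly6a, Mllt3, Procr and Slamf1, so those genes are no independent evidence.

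Between decoy and PBS, no member was called in the leukaemic class (0 of the 7 tested by edgeR, 0 at an unadjusted p under 0.05 and 0 by DESeq2), where 0.663% of 14338 genes were called (0.6% higher and 0.0628% lower in decoy). The share of called genes makes 0 of 7 uninformative by itself, and the intervals give the size of change that remains possible. Kit differed by -0.03 log2 units (95% interval -0.29 to 0.24), Erg by 0.03 (-0.29 to 0.34), Myb by -0.08 (-0.31 to 0.14), Lmo2 by 0.19 (-0.05 to 0.42) and Tal1 by 0.14 (-0.11 to 0.38). The less abundant members had wider intervals, with Cd34 at -0.31 (-1.15 to 0.52) and Meis1 at -0.41 (-1.03 to 0.21). Hoxa9, Mecom and Sox4 did not pass the filter. The PBS value lay inside the decoy range for Kit, Erg and Tal1, above it for Cd34, Meis1 and Myb, and below it for Lmo2. With 1 PBS library, its spread was assumed to be that of the decoy libraries.

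The thinned shares of positive leukaemic cells were compared for all 10 members. For Myb the share was 67.6% in PBS and 63.7 ± 0.91% (SD, n = 3) in decoy libraries, and for Tal1 60.9% and 61.4 ± 1.36% (SD, n = 3). The exact two-sided permutation test over 4 libraries cannot give a p below 0.25, which Cd34, Mecom and Myb reached (Benjamini-Hochberg adjusted 0.833), so no member could have been called. For Lmo2 the PBS share of 71.53% lay inside the decoy range of 71.47% to 75.75%, whereas its CPM lay below it. Within cluster 2, where Kit was highest, it was 266 CPM in PBS and 144 to 236 in the decoy libraries, a difference of -0.40 log2 units (95% interval -0.82 to 0.02, edgeR adjusted p = 0.599).

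**Figure D5:**
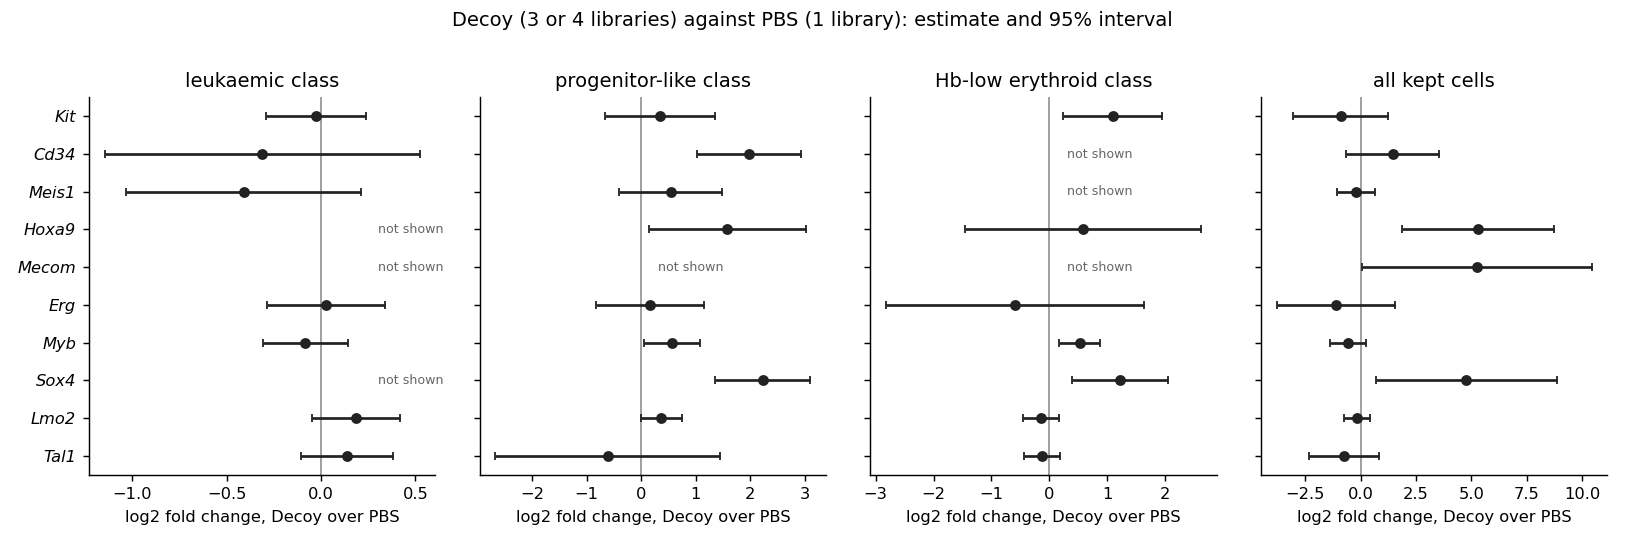
Log2 fold change of decoy over PBS (horizontal axis, a different scale in each panel) with its 95% interval from edgeR, for each gene in the leukaemic, progenitor-like and erythroid-like classes and in all kept cells. Genes that failed the filter, and Meis1 in erythroid-like cells (0 UMIs in PBS), are not shown; in leukaemic cells each interval includes 0.

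In the progenitor-like class 0 of 9 tested members were called by edgeR, 4 had an unadjusted p under 0.05 and 2 were called by DESeq2, with 0.506% of 11454 genes called by edgeR (0.253% in each direction). The estimates for Sox4 and Cd34 were the largest among the members. Sox4 was 3.88 CPM in PBS and 18.1 ± 3.94 (SD, n = 4) in decoy libraries, a difference of 2.23 ± 0.37 log2 units (edgeR, adjusted p = 0.0585). Cd34 was 2.86 CPM in PBS and 11.2 ± 2.65 (SD, n = 4) in decoy libraries, a difference of 1.97 ± 0.40 (edgeR, adjusted p = 0.0852). For both, PBS was below all 4 decoy libraries. Both were called without Decoy 2 (edgeR, adjusted p = 0.0126 for Sox4 and 0.0338 for Cd34), by DESeq2 (0.000172 and 0.0110) and without the filter on low counts (0.0162 and 0.0370). Hoxa9 differed by 1.58 ± 0.61 and Myb by 0.57 ± 0.21 log2 units (edgeR, adjusted p = 0.266 and 0.259). The count of called genes itself was unstable, 583 without Decoy 2, 0 without Decoy 3, 3 without Decoy 5 and 0 without Decoy 6, against 58 with all libraries.

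The make-up of this class differed between libraries; with 1 PBS library, treatment and library cannot be told apart. Sub-cluster 5, led by the neutrophil genes Ngp and Cd177 and with 0 Sox4 UMIs, made up 48.5% of the progenitor-like cells in PBS and 4.17%, 0%, 1.80% and 1.89% in Decoy 2, 3, 5 and 6. Sub-cluster 4 made up 7.46% in PBS and 10.7% to 12.9% in the decoy libraries. Other shares did not follow treatment: sub-cluster 7 was 29.9% of Decoy 3 and at most 0.629% elsewhere, and sub-cluster 8 was 11.9% in PBS, 13.9% in Decoy 2 and at most 1.89% elsewhere. Within sub-cluster 4, Sox4 was 28.7 CPM in the 10 PBS cells and 30.7, 23.9, 45.6 and 53.1 in Decoy 2, 3, 5 and 6, so PBS lay inside the decoy range. Cd34 there was 12.7 CPM in PBS (8 UMIs) and 29.5, 20.04, 37.1 and 31.9, with PBS below all 4. The differences within sub-cluster 4 were not tested, since PBS had fewer than 20 of its cells.

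In the erythroid-like class 0 of 8 tested members were called by edgeR, 3 had an unadjusted p under 0.05 and 1, Myb, was called by DESeq2, with 3.35% of 10850 genes called by edgeR (1.93% higher and 1.43% lower in decoy). Kit was 16.4 CPM in PBS and 33.9 ± 8.17 (SD, n = 4) in decoy libraries, 1.09 ± 0.38 log2 units (edgeR, adjusted p = 0.168). Myb was 160 CPM in PBS and 224 ± 25.7 (SD, n = 4) in decoy libraries, 0.52 ± 0.15 (edgeR, adjusted p = 0.115), and Sox4 differed by 1.22 ± 0.36 (edgeR, adjusted p = 0.118). For all 3, PBS was below all 4 decoy libraries. With doublets removed at the expected rate, the Kit difference rose to 2.83 log2 units and was called, as was Myb (edgeR, adjusted p = 0.0346 and 0.0309), and Myb was also called without Decoy 2 (0.0257). Lmo2 and Tal1 differed by -0.14 (95% interval -0.45 to 0.16) and -0.13 (-0.44 to 0.19). The PBS class had 37 cells, and its 12 erythroid markers summed to 29420 CPM against 11532 to 18619 in the decoy libraries; the part of erythroid stage in these differences was not tested.

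Summed over all kept cells, Kit, Erg, Myb and Tal1 had the same order of libraries as the share of leukaemic cells. Kit was 50.1 CPM in PBS and 48.0, 21.6, 10.1 and 28.1 in Decoy 2, 3, 5 and 6, libraries of which the leukaemic class made up 91.5%, 83.2%, 19.4%, 1 cell and 44.0%. Cd34, Hoxa9 and Sox4 had the reverse order, with Sox4 at 0.161 CPM in PBS and 0.967, 5.93, 8.75 and 2.96. Mecom was also lowest in PBS, while Meis1 (2.87 CPM in PBS, 2.12 to 3.17 in decoy libraries) and Lmo2 (163 in PBS, 135 to 171 in decoy libraries) followed neither order. In such sums fewer cells of a type and less RNA per cell cannot be told apart. Hoxa9 and Mecom, at 0.0216 and 0.00196 CPM in PBS, passed the filter on low counts here only through the decoy libraries. Tests and calls of these genes over all kept cells are therefore no independent evidence. By edgeR 0 of 10 members and 0 of 16006 genes (0%) were called, with 3 members and 1667 genes at an unadjusted p under 0.05. DESeq2 called 2 members, Hoxa9 and Sox4, and 2028 genes, and without Decoy 2 edgeR called 3 members, Hoxa9, Mecom and Sox4, and 2474 genes.

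Among the related genes, Ly6a was the only one called between decoy and PBS in the leukaemic class (0.501 CPM in PBS, 2.53 to 8.22 in decoy libraries, 3.40 ± 0.54 log2 units, edgeR adjusted p = 0.0257). It was also called in progenitor-like cells (333 CPM against 1139 to 1323) and in erythroid-like cells (27.5 against 235 to 496), the only related gene to pass in each of the 3 classes. In leukaemic cells its level was far below that in host cells, and the part of host RNA in it was not tested. In the erythroid-like class Cd48, Cbfb, Cbfa2t3, Gata2, Cdk6 and Zfp36l2 were also higher in decoy libraries. Gata2, a GATA factor of stem and early erythroid cells, was 23.8 CPM in PBS and 45.5 to 56.0 in decoy libraries (edgeR, adjusted p = 0.0458), and Cbfa2t3, a corepressor of the TAL1 complex, was 40.9 against 80.8 to 91.2 (edgeR, adjusted p = 0.00907). None of the Kit signalling components (22 or 23 tested per class) or HOX and MEIS network genes (11 to 13 tested) was called by edgeR in these 3 classes. Of all tested genes, 0.663%, 0.506% and 3.35% were called in the leukaemic, progenitor-like and erythroid-like classes. An absence of calls in lists of this size is therefore uninformative by itself.

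Over the means of 10 named classes, other genes ran closely with each member, given here as Pearson's r of log2(CPM + 1), a description over points that share libraries. Kit was closest to Nt5dc2 (0.93), Clint1 (0.92) and Macrod2 (0.91). Erg was closest to Hdc (0.96), the histidine decarboxylase of mast cells and basophils, Tal1 to Car2 (0.99), a carbonic anhydrase of red cells, and Cd34 to Dntt (0.97) and Hoxa7 (0.97). Hoxa9 and Sox4 were closest to each other among the 8499 genes compared (0.93), and Myb was closest to 1700097N02Rik (0.97). Meis1 was closest to Dr1 (0.92), Mecom to Ccnc (0.92) and Lmo2 to Rbm43 (0.87). No class mean of Mecom exceeded 0.458 CPM, so its r rests on few UMIs. The plasmacytoid dendritic-like class, 22 cells of Decoy 5 alone, had the highest Cd34, Hoxa9 and Sox4, and its part in their r was not tested.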

How the data were processed

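The deposited matrices hold raw counts: each entry is the whole number of UMIs of 1 gene in 1 barcode. The authors' matrix headers name Cell Ranger 5.0.0, and the submitters' processing notes list Cell Ranger 3.1, Seurat 4, DESeq2 and the mm10 build; their roles are not given in the sources used here. Libraries held 2454 to 19337 barcodes and 56490098 to 579333323 UMIs.

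Barcodes with at least 500 genes, 1000 UMIs and at most 10% mitochondrial UMIs were kept. Doublets were called with scrublet in scanpy 1.11.5; the automatic threshold marked 6.88% in PBS but at most 0.412% in decoy libraries, against expected rates of 15.5% and 1.96% to 5.49%, so it did not separate doublets there. The 2000 most variable genes, without the 10 members, the related lists and cell cycle, interferon, ribosomal, mitochondrial and sex genes, gave 30 principal components, 15 neighbours and Leiden clusters (leidenalg 0.10.2, resolution 0.5). Clusters with profile correlations of at least 0.9 were merged, a step chosen after the clusters were seen, and named from 16 marker lists; 23 basophil-like cells were set aside from the progenitor-like class, and 1137 cells in 3 clusters, of low UMIs or mostly predicted doublets, stayed unnamed. Class names are resemblances rebuilt here. Sub-clusters used a resolution of 0.8.

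UMIs were summed per library and class (at least 20 cells). Levels are CPM of the class total. edgeR 4.0.16 (R 4.3.3; filterByExpr, TMM, quasi-likelihood, two-sided) was run over all genes with Benjamini-Hochberg adjustment, a call being adjusted p under 0.05; comparisons between classes used the library as a block. Intervals of log2 differences are 95% from the same fit, and those of counts are exact and cover counting error only. Thinned shares are expectations at 10000 UMIs over cells with at least that many. DESeq2 1.42.0, RLE scaling, no filter, other doublet and mitochondrial limits, resolution 1.0, 50 cells, a gate on Xist and Y-linked UMIs, and leaving out libraries were alternatives. The scripts were tested on simulated data. Named genes were the 10 members, up to 4 called genes of each related list by size of change (2 abundant ones where none was called) and, per member, up to 3 genes of highest likeness. 1 gene that this rule names is not reported here. Members and lists were chosen with earlier results of these data known. Promoter windows are from RefSeq.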

Additional observations from a re-analysis of the deposited data

Results flagged for a closer look

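In 6 cases every decoy library moved one way from PBS in one class and every decoy library the other way in another class. The difference between the classes was not tested. The share of all genes with such opposite moves was not counted, so these cases do not set the members apart. Each rests on 1 PBS library. For Cd34 the log2 ratio of the decoy mean to PBS was -0.40 in leukaemic and 1.97 in progenitor-like cells. Meis1 gave -0.61 and 0.54, and Myb -0.17 and 0.57, in the same 2 classes. Myb gave 0.49 in erythroid-like cells, opposite to the leukaemic class. Lmo2 gave -0.18 in erythroid-like cells, against 0.10 in leukaemic and 0.37 in progenitor-like cells. The edgeR estimates in leukaemic cells were nearer to 0 for Cd34, Meis1 and Myb (-0.31, -0.41 and -0.08). That for Lmo2 was larger (0.19), and each of the 95% intervals includes 0. Dixon's outlier test compares the gap beside an extreme value with the full range. It marked no decoy library for any member in the 3 sets of cells with 4 decoy libraries. With 4 values only an extreme gap can be marked, so this does not show that the libraries were alike. For Meis1 in erythroid-like cells, Decoy 3 had 3.40 CPM. The lowest decoy library had 0.404 and the mean of all 4 was 1.30 CPM.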

How the results depend on the processing

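No member was called between decoy and PBS in leukaemic cells under any of the alternatives run. Between leukaemic and progenitor-like cells, the directions of Kit, Meis1, Erg and Tal1 held under all of them. Those of Myb and Lmo2 held except against the Mpo sub-cluster (-0.43 and -0.48). With cells gated on Xist and Y-linked UMIs, Kit, Meis1, Erg, Myb, Lmo2 and Tal1 were called against progenitor-like cells. Against erythroid-like cells Kit, Erg, Myb and Lmo2 were called with this gate, over 2 libraries. No paired analysis was possible because PBS and the decoy libraries share no replicate number. Counts of called genes moved as follows. Over all kept cells, 0 became 2028 with DESeq2 and ranged from 0 to 2474 without single decoy libraries, the highest without Decoy 2. In leukaemic cells, 95 became 542 without the filter, 261 with DESeq2, 60 at resolution 1.0 and 279, 226 and 29 in clusters 0, 1 and 6 alone, and ranged from 272 to 559 without single libraries. In progenitor-like cells, 58 became 229 without the filter, 361 with DESeq2, 197 with doublets removed at the expected rate and 329 at resolution 1.0, and ranged from 0 to 583 without single libraries. In erythroid-like cells, 364 ranged from 131 to 483. Between leukaemic and progenitor-like cells, 9221 became 6066 against the Mpo sub-cluster and ranged from 8028 to 8949; between leukaemic and erythroid-like cells, 7310 became 4266 with all erythroid-like cells and ranged from 5692 to 7526. The cause was not tested. The share differences between decoy and PBS, in percentage points, became 0 for Hoxa9 (from 0.00179) and changed sign for Erg (0.0632, from -0.505) without Decoy 2, and changed sign for Sox4 (-0.00109, from 0.0857) and Tal1 (-0.0258, from 0.562) without Decoy 3. Without single libraries the ranges were -3.56 to -1.05 for Kit, -0.187 to -0.124 for Cd34, -1.11 to -0.640 for Meis1, 0 to 0.00268 for Hoxa9, -1.44 to 0.0632 for Erg, -4.34 to -3.52 for Myb, -0.00109 to 0.134 for Sox4, 0.701 to 2.84 for Lmo2 and -0.0258 to 1.31 for Tal1. The limit of 50 cells could not be run for decoy against PBS in erythroid-like cells, where PBS had 37. The PBS group of 1 library and the few host cells of PBS limit every decoy comparison.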

Other observations

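Erg was not confined to leukaemic cells. Neutrophil-like cells had 29.2 CPM in PBS and 18.9, 18.4, 15.7 and 13.5 in Decoy 2, 3, 5 and 6, in or above the leukaemic range of 14.3 to 18.6 except in Decoy 6. Decoy 5, with 1 leukaemic cell and 0 Xist CPM in its neutrophil-like cells, had 15.7. Plasmacytoid dendritic-like cells reached 20 cells in Decoy 5 alone (22 cells) and had Cd34 at 37.2, Hoxa9 at 20.7, Sox4 at 124 and Myb at 136 CPM there. Few cells carried these levels, with a UMI of Cd34 in 2 cells, Hoxa9 in 5, Sox4 in 7 and Myb in 10. In the 548 haemoglobin-rich erythroid-like cells of PBS, Kit was 2.65 and Myb 4.59 CPM, while Lmo2 was 301 and Tal1 140 CPM. Xist was 344 CPM in the T cell-like class of PBS and 279 in Decoy 2, where Kit was 12.0 and 23.4 CPM, against 0 and 3.25 CPM in Decoy 5.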
